A study of Homo sapiens with 4 samples.

Results

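PKM encodes pyruvate kinase, the enzyme that turns phosphoenolpyruvate into pyruvate at the end of glycolysis, and its transcripts carry either exon 9 or exon 10. Every event listed under PKM in the deposited splicing tables was taken, which gave 31 of 121269 events. Of these, 19 were skipped exon (SE) events, 8 were mutually exclusive exon (MXE) events and 4 were alternative 5′ splice site (A5SS) events. Tables of alternative 3′ splice sites and of retained introns held 0 PKM events. Exon 9 or exon 10 was the alternative exon in 8 of the 31 events.

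The exon 9 form, PKM1, is the form of muscle and mature brain, and the exon 10 form, PKM2, is the form of embryonic tissue, proliferating cells and most tumours including glioblastoma. The choice is known to be set by repressors that bind around exon 9, namely PTBP1, hnRNPA1 and hnRNPA2B1, while SRSF3 favours exon 10. PKM2 can switch between a less active dimer and an active tetramer, and PKM1 stays a tetramer.

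The RNA came from U87MG, an established human cell line labelled as likely glioblastoma, grown in culture and lipofected with RNA oligonucleotides at 2.5 µM. RBFOXi, a decoy made of repeats of the binding motif of the splicing factors RBFOX1 and RBFOX2, was given to 2 cultures, and in replicate 1 it carried the dye Cy5. SCRM, a scrambled oligonucleotide, was given to the other 2. The series' design text calls the replicates independent biological replicates, and all 4 libraries came from this 1 cell line. The tables hold splicing counts and no gene expression, so the cells were not checked against marker genes.

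Both exons lie on the minus strand of chromosome 15 (hg19) and have the same length. In GENCODE 44 lifted to GRCh37, exon 9 was an exon of 5 PKM transcripts and coding throughout in 5 of them. Exon 10 was an exon of 5 transcripts and coding throughout in 3, and 0 transcripts held both. The sequences are shown because the counts rest on telling these exons apart. Capitals mark the positions at which they differ, aligned base for base without gaps, for exon 9 at chr15:72495363-72495529 and exon 10 at chr15:72494795-72494961.
exon 9: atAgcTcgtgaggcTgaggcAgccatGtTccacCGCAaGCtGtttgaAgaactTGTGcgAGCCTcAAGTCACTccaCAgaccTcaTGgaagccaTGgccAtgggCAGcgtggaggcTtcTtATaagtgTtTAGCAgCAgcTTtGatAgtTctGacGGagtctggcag
exon 10: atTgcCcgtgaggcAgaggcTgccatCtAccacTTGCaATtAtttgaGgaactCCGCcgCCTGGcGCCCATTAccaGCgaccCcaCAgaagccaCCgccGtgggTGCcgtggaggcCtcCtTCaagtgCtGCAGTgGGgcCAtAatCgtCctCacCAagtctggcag

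The exons were equal at 105 positions (62.9%) and differed at 62. The longest run of equal bases was 10 nt, and every stretch of 100 nt held at least 37 differences. GC content was 53.3% in exon 9 and 61.1% in exon 10. GENCODE also annotates 5 processed copies of PKM elsewhere in the genome. The best ungapped match to exon 10 was 88.6% in the closest copy, 2 copies matched over 80% of its bases, and 0 copies matched over 80% of exon 9. The authors kept uniquely aligned reads, and how many exon 10 reads were lost or gained through these copies was not tested.

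The flanking introns were searched on the transcript strand for the letters TGCATG (the RBFOX motif), CTCTCT and TCTTC (motifs of PTBP1) and TAGGG (a motif of hnRNPA1). Intron 8, between exons 8 and 9, was 3539 nt long and held 6 copies of TGCATG, of which the last pair overlapped by a few letters, 438 and 434 nt before exon 9. The other 4 lay 2987, 1158, 929 and 655 nt before it. Of 2253 introns of 3000 to 4000 nt upstream of tested skipped exons, 59.8% held at least 1 copy, the median was 1, and 8 introns (0.355%), intron 8 among them, held 6 or more. Intron 9 (401 nt) and intron 10 (1798 nt) held 0 copies. The overlapping pair lies in the stretch chr15:72495939-72495998, with the motif in capitals.
overlapping TGCATG copies in intron 8: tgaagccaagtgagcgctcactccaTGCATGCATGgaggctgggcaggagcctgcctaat

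No copy of TGCATG lay within 300 nt before exon 9, where 8.16% of 30617 tested skipped exons had one. The 120 nt before exon 9 are shown because they hold matches to the PTBP1 motifs in capitals, with CTCTCT 94 nt before the exon. The corresponding 300 nt held CTCTCT in 15.3% and TCTTC in 36.5% of those exons. After exon 9, TAGGG began at the second base of intron 9, and 19.7% of exons had TAGGG within 300 nt downstream. A match is a description of the letters and not of binding.
end of intron 8 (chr15:72495530-72495649): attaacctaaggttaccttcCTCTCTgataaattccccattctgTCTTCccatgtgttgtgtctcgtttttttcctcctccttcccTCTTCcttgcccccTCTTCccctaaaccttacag
start of intron 9 (chr15:72495303-72495362): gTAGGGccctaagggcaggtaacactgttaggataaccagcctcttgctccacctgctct

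**Figure D1:**
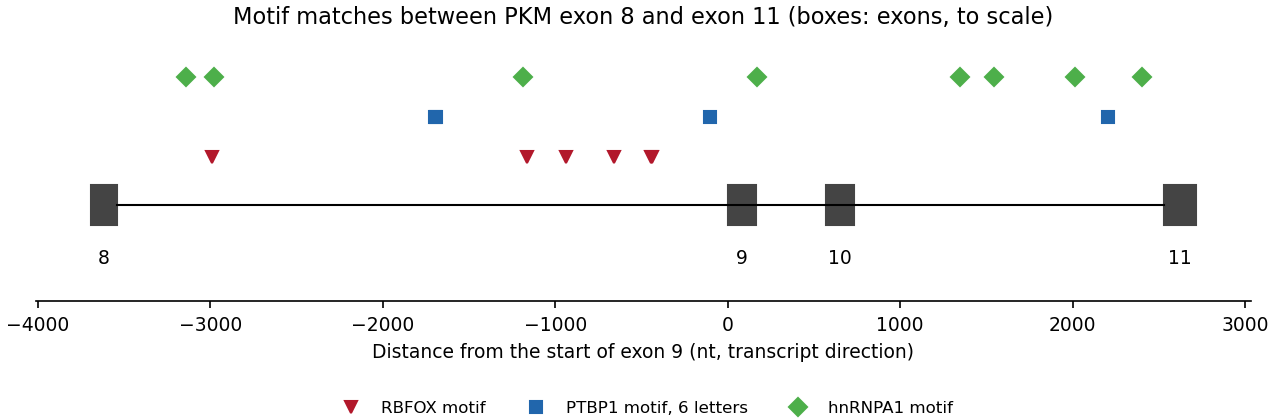
Matches to the RBFOX, PTBP1 (CTCTCT) and hnRNPA1 motifs between exon 8 and exon 11, with the distance in nt from the start of exon 9 on the x axis and exons as boxes to scale. The 6 RBFOX matches lie in intron 8, and the pairs of overlapping matches (1 of RBFOX, 1 of PTBP1) appear as single symbols.

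One library differed from the rest in how its reads lay along genes. SCRM replicate 1 had 0.551 times as many counts per nt on exon 11 of PKM as on exon 2, against 0.207 in SCRM replicate 2 and 0.255 and 0.243 in RBFOXi replicates 1 and 2. In 1044 other genes the median ratio of the last to the first measured exon was 2.12 in SCRM replicate 1 and 0.769 to 0.946 in the other libraries, and SCRM replicate 1 had the highest ratio in 1018 of them (97.5%). Because exons 9 and 10 lie near the 3′ end, the differences for exons 9 and 10 are also given without this library, and the part of this skew in the other results was not tested.

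**Figure D2:**
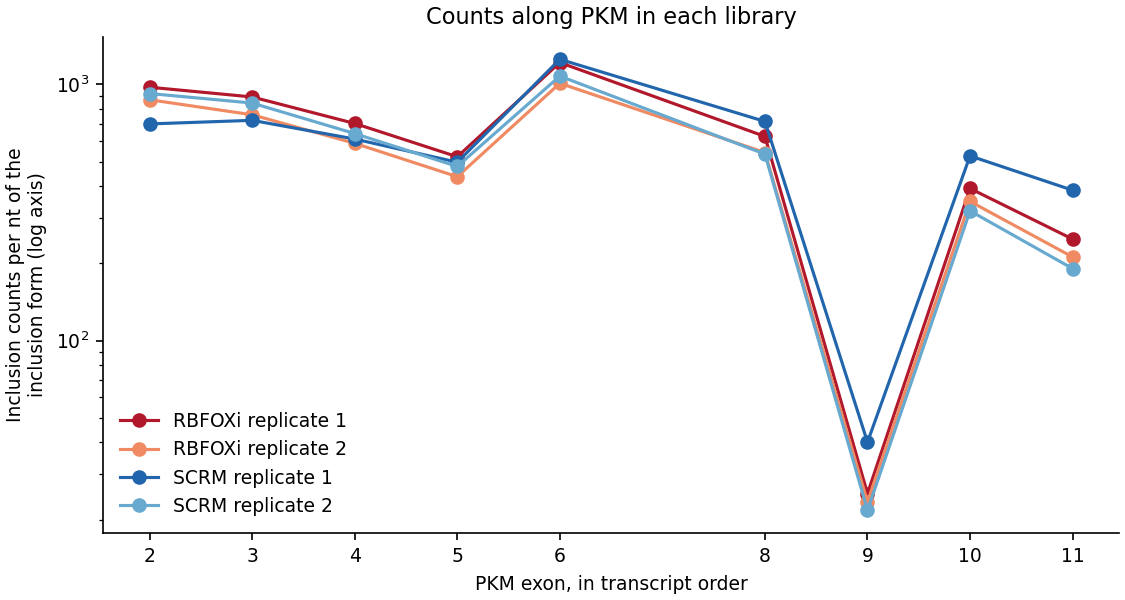
Inclusion counts per nt of the inclusion form on a log axis, for each PKM exon with a skipped exon event of its own, in transcript order, with 1 line per library. Exon 9 is the low point in every library, and SCRM replicate 1 is below the others at exon 2 and above them from exon 8 on.

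Exon 10 was the main form in all 4 libraries. In the event with exon 8 and exon 11 on its sides, exon 10 had 93818 and 83524 counts with RBFOXi and 125743 and 76698 with SCRM. Exon 9 had 6039 and 5600 counts with RBFOXi and 9586 and 5194 with SCRM. In every library, then, the PKM2 exon was read many times as often as the PKM1 exon.

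As a share of the pair (percent spliced in, PSI, from counts divided by the effective length of each form), exon 9 made up 6.05% and 6.28% with RBFOXi and 7.08% and 6.34% with SCRM. The RBFOXi values lay below both SCRM values, by a small margin at SCRM replicate 2. The means were 6.17% ± 0.167 and 6.71% ± 0.524 (SD, n = 2 each), a difference of -0.547 percentage points.

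The difference did not pass the test. On the log2 odds scale it was -0.13 (SE 0.17, 95% interval -0.51 to 0.25), with an adjusted p of 1.00 by limma over 26176 MXE events. This SE rests on the spread of the pair and, through the prior variance of limma, on that of other MXE events. In shares of exon 9, set against 6.70% in SCRM, the interval runs from 4.80% to 7.89%, or differences in PSI from -0.0191 to 0.0119. With 2 libraries against 2, an exact two-sided permutation test cannot go below 0.333. Without SCRM replicate 1 the difference in PSI was -0.00177 (adjusted p = 0.998 by limma). Without SCRM replicate 2 it was -0.00918 (adjusted p = 0.0514 by limma). In these fits 1 SCRM library stands alone and is assumed to vary like the RBFOXi libraries, so their p-values do not bear on the spread within SCRM.

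Reads on single junctions were recovered by subtracting events that share a form. From exon 8, 2429 and 2180 reads went to exon 9 with RBFOXi and 3648 and 2064 with SCRM, against 40139 and 35096 with RBFOXi and 48814 and 34222 with SCRM to exon 10. For each read joining exon 8 to exon 9, between 13.4 (SCRM replicate 1) and 16.6 (SCRM replicate 2) joined exon 8 to exon 10.

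The exon 9 share of these junction reads was 5.71% in RBFOXi replicate 1 (95% Wilson interval 5.49 to 5.93), 5.85% in replicate 2 (5.61 to 6.09), 6.95% in SCRM replicate 1 (6.74 to 7.17) and 5.69% in SCRM replicate 2 (5.45 to 5.93). The intervals cover counting error only. Here the groups overlapped: SCRM replicate 2 was the lowest of the 4 and SCRM replicate 1 stood above the rest. The RBFOXi mean was 0.0891 percentage points above SCRM replicate 2 and differed from SCRM replicate 1 by -1.18 percentage points, so the direction of the difference turned when SCRM replicate 1 was left out.

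On the counts that remain when the exon 8 junction is left out, which are the reads within each exon and on its junction to exon 11, the share was 6.30% and 6.60% with RBFOXi and 7.17% and 6.86% with SCRM. These are the counts of the MXE event with exon 7 in place of exon 8, where RBFOXi lay below SCRM without overlap and the test gave an adjusted p of 1.00 by limma. The difference in PSI was -0.00566, and -0.00414 without SCRM replicate 1.

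**Figure D3:**
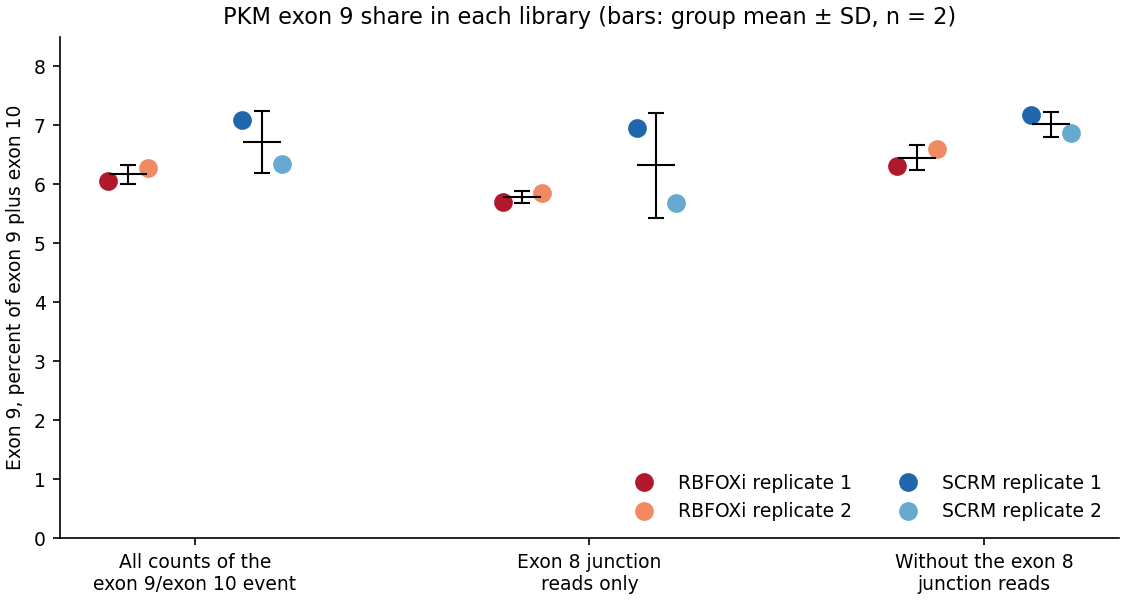
Exon 9 as a percentage of exon 9 plus exon 10 in each library, by all counts of the event, by exon 8 junction reads and by the remaining counts, with bars for the group mean ± SD (n = 2). All values lie between 5.69% and 7.17%, and RBFOXi overlaps SCRM in the middle set only.

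Few transcripts lacked both exons. Reads joining exon 8 straight to exon 11 numbered 17 and 21 with RBFOXi and 34 and 24 with SCRM, 0.0399% and 0.0563% against 0.0648% and 0.0661% of the junction reads leaving exon 8. Both RBFOXi shares lay below both SCRM shares, on these few reads. The Wilson intervals, which cover counting error only, overlapped in all 4 libraries, for example 0.0249 to 0.0639 in RBFOXi replicate 1 and 0.0444 to 0.0983 in SCRM replicate 2.

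For this reason the SE events of the pair were near full inclusion, since the SE count sets each exon against skipping of both and not against its partner. Exon 9 had a PSI of 99.2% and 99.0% with RBFOXi and 99.0% and 98.7% with SCRM (difference 0.218 percentage points, adjusted p = 1.00 by limma). Exon 10 had 99.95% and 99.93% against 99.92% and 99.91% (difference 0.0209 percentage points, adjusted p = 1.00 by limma). As PSI, the exon 9 difference of 0.00218 became 0.00364 without SCRM replicate 1, 0.000722 without SCRM replicate 2 and 0.000906 without RBFOXi replicate 1. The exon 10 difference of 0.000209 became 0.000268 without SCRM replicate 1 and 0.000112 without RBFOXi replicate 1. The SE value of exon 9 therefore does not measure its share of PKM transcripts. The corresponding SE events flanked by exon 7 had 0 to 2 skipping counts per library and did not pass the filter on low counts.

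Of the 31 PKM events, 22 passed the filter (10 SE, 8 MXE and 4 A5SS), and 0 were called by limma, at an adjusted p under 0.05 with a change in PSI of at least 0.1. For the pair, with an exon 9 share of 6.71% in SCRM, a fall of 0.1 in PSI was out of reach. So was a rise of 0.1 for the SE events near full inclusion. For these events the lack of a call does not bear on smaller changes. Over all tested events, 0.0682% of SE, 0% of MXE and 0% of A5SS events were called. None of the 22 had an unadjusted p under 0.05, against 3.61%, 1.51% and 3.59% of all tested events of these types. A quasi-binomial F test called 0 of them with 1 unadjusted p under 0.05, and Fisher's exact test on the counts added over replicates called 0, although 10 had an adjusted p under 0.05.

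The groups did not overlap in 2 SE, 2 MXE and 2 A5SS events of PKM, where 30.8%, 24.4% and 30.1% of all tested events did not. The MXE events were those of the pair, with RBFOXi below SCRM. In the SE and A5SS events, RBFOXi lay above SCRM, by at most 0.000382 in PSI.

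The 6 other MXE events set an exon against one that does not replace it in the transcript, such as exon 8 against exon 11. In that event the PSI of exon 8 was 0.643 and 0.646 with RBFOXi and 0.564 and 0.667 with SCRM. The low value was again SCRM replicate 1, the library with more counts towards the 3′ end, and the adjusted p was 1.00 by limma. The difference of 0.0288 became -0.0226 without that library.

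A rare 117 nt exon between exons 1 and 2 (chr15:72513509-72513625) had the smallest unadjusted p of any PKM event. From the main form of exon 1 its PSI was 0.00122 and 0.00255 with RBFOXi and 0.00091 and 0.00128 with SCRM, so the groups overlapped. The log2 odds rested on 278 and 514 inclusion counts against 142 and 273 and differed by 0.71 (SE 0.34, 95% interval -0.03 to 1.44, adjusted p = 1.00 by limma). From a longer form of exon 1 the PSI of this exon was 0.0883 and 0.164 against 0.0725 and 0.0960, and RBFOXi replicate 2 was the highest library in both events.

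The A5SS events described the end of exon 1, which has a main end and longer ends 4 nt apart from each other. Against the main end, and joined to exon 2, the longest end had a PSI of 0.00480 and 0.00466 with RBFOXi and 0.00419 and 0.00450 with SCRM. Joined to the rare exon, it had 0.699 and 0.508 against 0.697 and 0.653. RBFOXi replicate 2 was the lowest library there, and the adjusted p was 0.995 by limma.

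**Figure D4:**
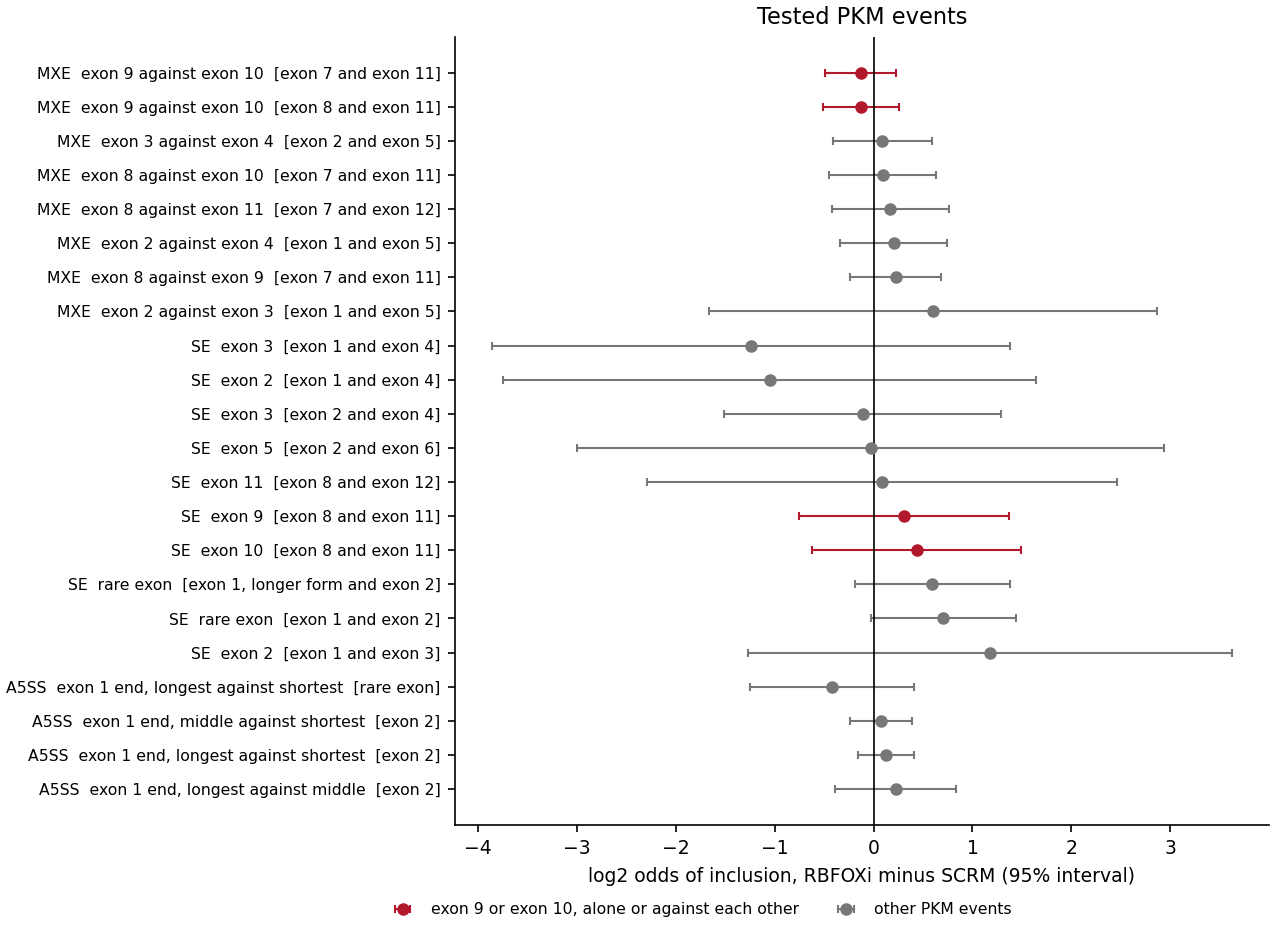
Log2 odds of inclusion, RBFOXi minus SCRM, with 95% intervals from limma for the 22 tested PKM events, labelled by event type, alternative exon and flanking exons in brackets. The interval of every event includes 0, and those of the exon 9 against exon 10 events are narrower than that of every SE event shown.

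Among MXE events the pair was deeply read and varied little in PSI. It had 406202 counts over the libraries, where the median event had 3095 and 50 events had more. Its absolute difference in PSI of 0.00547 was smaller than the median of 0.0192, and 18.2% of events had a smaller one. The mean SD between replicates was 0.00345, against a median of 0.0249. The mean PSI of the pair was 0.0617 with RBFOXi and 0.0671 with SCRM, near the lower end of the scale. These comparisons were made in PSI and were not matched on PSI level or depth. The part of PSI level and depth in the small difference and SD of the pair was not tested.

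Equal-length MXE events of other genes were ranked by the mean absolute difference in PSI from the PKM pair over the 4 libraries, among 358 events of 213 genes. The nearest were in CENPP (0.0111), SMAP1 (0.0253) and PDE8A (0.0264). The ranking used PSI alone and took no account of read depth. In CENPP the PSI was 0.0667 and 0.0631 with RBFOXi and 0.0583 and 0.0888 with SCRM.

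The other genes of glycolysis and its entry and exit steps were taken as a list of 21, from the hexokinases HK1 and HK2 to the lactate dehydrogenases LDHA and LDHB. Of their 376 events 240 passed the filter, and 0 rose and 0 fell by limma, with 3 at an unadjusted p under 0.05 (1.25%, against 2.81% of all 72115 tested events). The quasi-binomial test and Fisher's test called 0. Pooled over event types, the median absolute difference in PSI was 0.00298, against 0.0125 over all tested events, and the groups did not overlap in 15.4% against 28.4%. The median was 0.000475 against 0.00803 in SE and 0.0119 against 0.0192 in MXE events. Groups did not overlap in 20.6% against 30.8% of SE and 7.62% against 24.4% of MXE events. The 3 events of alternative 3′ splice sites and 2 A5SS events went the other way (66.7% against 30.9% and 50% against 30.1%). Events of 1 gene can share reads. The comparison with all tested events was not matched on PSI level or depth, and their part in the smaller differences was not tested.

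Among events whose groups did not overlap, the widest differences were in low or moderate counts. A 161 nt exon of PFKL, the liver-type phosphofructokinase (chr21:45725140-45725300), had a PSI of 0.573 and 0.727 with RBFOXi and 0.878 and 0.898 with SCRM, on 24 to 38 counts per library (adjusted p = 1.00 by limma). An exon of PFKM, the muscle type, had 0.469 and 0.548 against 0.726 and 0.598 on 7 to 35 counts (adjusted p = 1.00 by limma). An exon of the aldolase ALDOA had 0.920 and 0.940 against 1 and 1 on 134 to 192 counts (adjusted p = 1.00 by limma).

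A list of 9 genes held regulators of the exon choice and RBFOX2, which was added as the factor the decoy was made for. Of these genes 8 had events, RBM4 having 0. Of their 120 events 69 passed the filter, and 0 rose and 0 fell by limma, with 3 at an unadjusted p under 0.05 (4.35%, against 2.81% of all tested events). These 3 include both forms of a PTBP1 exon described below, which share an end (unadjusted p = 0.0336 and 0.0369 by limma). The quasi-binomial test called 0 and Fisher's test called 1, in PTBP1. The groups did not overlap in 23.2%, against 28.4%, and the median absolute difference was 0.00818.

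PTBP1, the repressor of exon 9, held the called event and another of the same exon. A 57 nt form of this exon (chr19:805513-805569) had a PSI of 0.456 and 0.504 with RBFOXi and 0.549 and 0.623 with SCRM, a difference of -0.106 (adjusted p = 1.00 by limma, and 3.23e-16 by Fisher's exact test). A 78 nt form that starts upstream had 0.583 and 0.626 against 0.659 and 0.732, a difference of -0.0913 (adjusted p = 1.00 by limma). In both forms the RBFOXi libraries were below the SCRM libraries, and neither difference passed by limma.

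In PTBP3, a paralogue of PTBP1, an MXE event had 0.743 and 0.8004 with RBFOXi and 0.589 and 0.735 with SCRM (adjusted p = 1.00 by limma). It rested on 25 to 507 counts per library. The lowest PSI was that of SCRM replicate 1, the library with the skew along genes described above. Over the 16 tested PTBP3 events the differences ran from -0.135 to 0.110. The 3 tested events of PTBP2 differed by -0.0852 to 0.104 and the 10 of PTBP1 by -0.106 to 0.00606. The smallest adjusted p of the list, 0.631, was in SRSF3, whose 2 tested events differed by 0.0142 and 0.0297. The 10 tested events of HNRNPA1 differed by -0.0176 to 0.00955, the 18 of HNRNPA2B1 by -0.00764 to 0.0270, and the 9 of RBFOX2, the factor the decoy was made for, by -0.0558 to 0.0512.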

How the data were processed

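RNA-seq of 4 libraries of U87MG cells was analysed from the 5 deposited tables of splicing events. Per the study's methods, the authors mapped 100 bp paired reads to unique places in hg19 (STAR 2.4.2a) and ran rMATS on the UCSC known genes to get counts for each event. The deposited counts of inclusion and skipping reads, joined by a comma per replicate, are raw and came with the effective length of each form in nt. The authors' own p-values, FDRs and inclusion levels in these tables were not used.

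PSI was the inclusion count per effective length over the sum of both forms. Log2 odds (pseudocount 0.5) were fitted over each whole table in R 4.3.3 by limma 3.58.1, using condition only, a prior variance that follows each event's information, and Benjamini-Hochberg adjustment within each event type. Events needed 5 counts in every library, a mean of 20 and 4 counts of each form. In 4 libraries the sums over SE events were 114415530 to 136097319, with reads shared by several events. In MXE events the inclusion form was the exon first in transcript order, checked against SE events of the same exon (equal counts in 6145 of 6145 on the plus and 5405 of 5405 on the minus strand). The fit was also run on simulated data with large planted changes and the same spread between libraries for all events. That run does not bear on a difference as small as that of the pair.

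Genome sequence was GRCh37 (hg19). The bases AG preceded 99.98% of 30617 distinct tested skipped exons. Python 3.11.15, pandas 2.3.3 and matplotlib 3.10.9 were used.

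PKM and both gene lists were chosen with earlier results of these data known. Within each list the text names called events, otherwise at most 3 tested events with the largest differences among those whose groups do not overlap, and values of other members are ranges. Ranges of SRSF3, HNRNPA1, HNRNPA2B1, PTBP1, PTBP2, PTBP3 and RBFOX2 were added after their values were seen. Alternatives covered the test, pseudocount, count filter, definition of PSI, flanking exon, replicate block and each library left out. Junction counts alone, and these or the exon 7 event without either SCRM library, were added after seeing the data.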

Additional observations from a re-analysis of the deposited data

How the results depend on the processing

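With all libraries kept, the exon 9 share by all counts and the SE events of exons 9 and 10 were called under no other setting. A call needs a change in PSI of at least 0.1. From an SCRM mean of 6.71% the exon 9 share could not fall that far, and the SE events, near full inclusion, could not rise that far. The lack of calls in the observed direction was therefore fixed by the threshold. The differences in PSI of these events do not depend on the test, pseudocount, filter or block, so these settings could not turn the direction. The plain share as PSI left the value of the pair unchanged and kept the direction of the SE events. Direction was also kept with each library left out in turn. For the pair, the difference in PSI ran from -0.00918 to -0.00177 with 1 library left out, with an adjusted p of 0.0514 by limma without SCRM replicate 2, where the lone SCRM library is assumed to vary like the others. Fisher's exact test on summed counts, which does not use the spread between replicates, gave 6.94e-15 at the same small difference. On junction counts alone the difference was -0.00544 with all libraries, -0.0118 without SCRM replicate 2 and, reversed, 0.000891 without SCRM replicate 1, and the cause was not tested. With exon 7 as the flanking exon it was -0.00414 without SCRM replicate 1 and -0.00718 without SCRM replicate 2.

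The counts of called events over whole tables moved far more. MXE calls, 0 as reported with 395 at an unadjusted p under 0.05, became 2 with a pseudocount of 1, 2 with the quasi-binomial F test, 199 with Fisher's test, 77 with the replicate block, and 4 to 1431 with 1 library left out (1431 without SCRM replicate 2, 20 without SCRM replicate 1, 15 without RBFOXi replicate 1 and 4 without RBFOXi replicate 2). SE calls, 27 as reported, became 44 with the filter of 1 count per library, 1 with a pseudocount of 0.1, 52 with the quasi-binomial F test, 317 with Fisher's test, 119 with the replicate block, and 3 to 63 with 1 library left out (63 without RBFOXi replicate 1, 3 without SCRM replicate 1 and 6 without SCRM replicate 2). The cause was not tested. Same-numbered libraries shared little, with a correlation of their deviations of 0.094 in SE and 0.088 in MXE events over 2 pairs. With the replicate block the adjusted p of the pair was 1.00 by limma.

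With 2 libraries per group, the interval of the pair limits what can be seen. It rests in part on the variance of other MXE events.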
